A study of Mus musculus with 21 samples.

Results

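The Hox genes encode homeodomain transcription factors that give cells their position along the head-to-tail axis. In mice they lie in 4 clusters, HoxA to HoxD, whose gene order follows the body axis: low-numbered genes act in anterior regions and high-numbered genes in posterior regions, the hindgut included. Polycomb complexes keep silent Hox genes in closed chromatin, Trithorax complexes and the caudal factors Cdx1 and Cdx2 help to open them, and retinoic acid, acting through nuclear receptors of the same superfamily as the vitamin D receptor (VDR), is known to regulate anterior Hox genes. Here every protein-coding gene of the mm9 mouse annotation named Hoxa, Hoxb, Hoxc or Hoxd followed by digits was taken, which gave 39 of 22284 genes: 11 in HoxA on chromosome 6, 10 in HoxB on chromosome 11, 9 in HoxC on chromosome 15 and 9 in HoxD on chromosome 2. The choice used no measured value.

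The study mapped VDR binding by ChIP-seq and accessible chromatin by ATAC-seq in 3 preparations of C57BL/6J mouse intestine: scraped epithelium of the colon, and crypts and villi of the proximal small intestine (SI crypt, SI villus), which the labels name as duodenum. VDR ChIP-seq had 4 samples per compartment, from mice of 4 to 6 weeks by the labels, for which the study's methods give a greater age, given 10 ng/g of 1,25(OH)2D3, the active hormone, 1 h before collection. ATAC-seq had 3 samples per compartment, from mice of 90 days by the labels, which the study's methods describe as untreated although the labels carry the hormone protocol. Within each assay, the compartments came from one group of mice by the study's methods. No vehicle-treated or input library was used here. The labels do not say which samples shared a mouse, so the spread between samples may be partly technical. All comparisons below are between compartments, and whether VDR at these sites depended on the hormone cannot be told.

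Single VDR libraries held 3100376 to 14716273 fragments after duplicate removal and 1136 to 13381 peaks. Single ATAC libraries held 14376006 to 38175468 tags and 21269 to 57825 peaks. The pooled lists held 22882 VDR peaks (colon), 12702 (SI crypt) and 18078 (SI villus), and 39428, 74734 and 64782 ATAC peaks in that order of compartments. SI crypt VDR sample 1 stood apart, with the fewest fragments (3100376) and the most peaks (13381) of the 12 VDR samples. Colon had the most ATAC tags (pools of 84065934 for colon, 54803820 for SI crypt and 72892004 for SI villus) and the fewest ATAC peaks. The labelled tissues were checked on markers. Car1, a colonic carbonic anhydrase, had ATAC peaks in all 3 colon samples and in no SI crypt or SI villus sample. Lct, Apoa4 and Onecut2, which mark the proximal small intestine, had ATAC peaks in every SI villus sample and in no single colon sample. The colon pool nevertheless had 2 peaks at Onecut2. In SI crypt, Onecut2 had a peak in all 3 samples, and Lct and Apoa4 each had one in 2 of 3.

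The sequences at the summits come first, because they show what kind of DNA carried the peaks. Each is up to 200 bp of mm9 around the summit of a pooled peak, read 5′ to 3′ on the strand of the nearest Hox gene and shortened where it would enter an annotated UTR. Capitals mark letters that match a searched motif. The strongest VDR peaks of HoxA, HoxC and HoxD, by −log10 of the q value, were these.
Hoxa7 promoter, colon, chr6:52171854-52171956, minus strand: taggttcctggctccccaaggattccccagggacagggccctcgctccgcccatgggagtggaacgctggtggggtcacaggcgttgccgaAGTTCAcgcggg
Hoxc11 downstream intergenic, colon, chr15:102790255-102790454, plus strand: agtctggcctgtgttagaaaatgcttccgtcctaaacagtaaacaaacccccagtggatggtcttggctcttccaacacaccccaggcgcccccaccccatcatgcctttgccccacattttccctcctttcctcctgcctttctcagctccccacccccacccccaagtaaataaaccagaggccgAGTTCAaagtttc
Hoxd8 first coding exon, SI villus, chr2:74543605-74543724, plus strand: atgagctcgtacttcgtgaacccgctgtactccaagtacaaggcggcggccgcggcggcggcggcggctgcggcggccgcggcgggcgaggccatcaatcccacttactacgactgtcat
The Hoxa7 stretch holds one AGTTCA, a VDR half-site, close to the start site. None of the 3 holds a DR3, the pair of half-sites 3 bp apart that VDR and its partner RXR bind. By the same search, 2.05% of all colon and 1.69% of all SI villus VDR peaks held one, so none among 3 stands near these shares.

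The next set shows accessible DNA at Hox genes that separated the compartments, and the strongest ATAC peak of all 4 clusters.
Hoxa5 downstream (strongest ATAC peak), colon, chr6:52151040-52151239, minus strand: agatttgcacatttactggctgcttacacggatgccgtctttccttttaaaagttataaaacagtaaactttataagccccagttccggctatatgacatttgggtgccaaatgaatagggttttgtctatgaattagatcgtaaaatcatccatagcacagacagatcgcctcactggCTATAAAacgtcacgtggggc
Hoxa5 promoter, colon, chr6:52154587-52154741, minus strand: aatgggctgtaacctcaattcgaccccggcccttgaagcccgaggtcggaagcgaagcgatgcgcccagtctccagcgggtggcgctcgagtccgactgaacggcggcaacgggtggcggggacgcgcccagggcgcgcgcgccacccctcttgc
Hoxb13 promoter, colon, chr11:96055473-96055629, plus strand: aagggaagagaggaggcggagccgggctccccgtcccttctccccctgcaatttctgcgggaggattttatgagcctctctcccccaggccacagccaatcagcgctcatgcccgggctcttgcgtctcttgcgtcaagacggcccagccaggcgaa
Hoxd1 promoter, colon, chr2:74600990-74601036, plus strand: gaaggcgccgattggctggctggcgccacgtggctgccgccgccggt
The Hoxa5 downstream stretch holds a TTTATNG core, read by CDX and posterior HOX proteins, on the reverse strand, and at 41% GC it is the least GC-rich of the stretches shown.

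A gene was counted as having a peak when a peak overlapped its body plus 5 kb on each side by at least 1 bp. Fold enrichment is the ratio of tags at a summit to the local background of the same library, as deposited. Windows of neighbouring Hox genes overlap, and the annotated Hoxa3 and Hoxd3 records run over several neighbours, so a single peak can count for several genes. In colon, 28 of the 39 Hox genes had a pooled ATAC peak, where 64.1% of all genes did. SI crypt had 24 of 39, where 73.6% of all genes did, and SI villus had 22 of 39, where 70.2% did. Promoters separated the compartments more than gene windows. Within 1 kb of the start site, 17 Hox genes had a pooled ATAC peak in colon, beside 49.1% of all genes. SI crypt had 8, beside 55.6%, and SI villus had 9, beside 52.2%. These counts stand near the background in colon and below it in both SI compartments. No test was made of these shares, because neighbouring Hox genes share peaks.

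**Figure D1:**
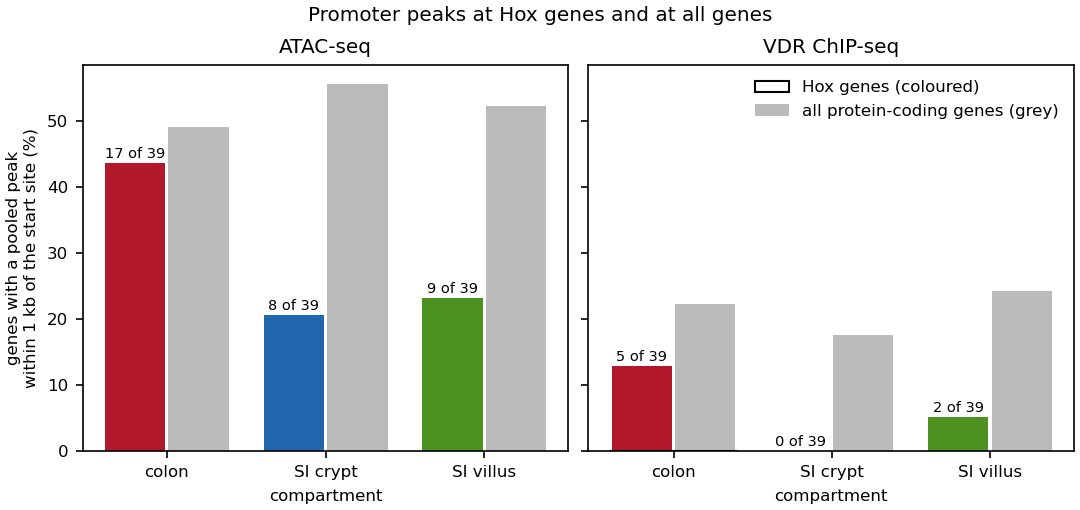
Share of genes with a pooled peak within 1 kb of the start site (y axis, percent) in each compartment (x axis) for ATAC-seq and VDR ChIP-seq, with the Hox genes as coloured bars and all 22284 protein-coding genes as grey bars. In colon 17 of 39 Hox promoters had an ATAC peak, 8 did in SI crypt, 9 did in SI villus, and no Hox promoter had a VDR peak in SI crypt.

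Support from single samples widened this gap. In colon 14 Hox genes had an ATAC peak in all 3 samples, as did 52.4% of all genes. SI crypt had 4 such Hox genes, against 61% of all genes, and SI villus had 1, Hoxa7, against 57.6%. Per sample, 14, 29 and 21 Hox genes had an ATAC peak in colon, 17, 4 and 20 among SI crypt samples, and 14, 14 and 7 among SI villus samples. In the same order, the shares of all genes were 55.1%, 59.1% and 61.2% (colon). They were 69.4%, 63.3% and 71.2% (SI crypt), and 66.9%, 65.7% and 62.4% (SI villus). The SI counts rested on single libraries. Without SI crypt sample 2 the count was 12. Without SI villus sample 3 it was 9, and without SI villus sample 2 it was 3. Without colon sample 1 the colon count was 21, and without colon sample 2 or colon sample 3 it stayed at 14. A peak in every sample is easier to meet at any gene with a sample left out. The shares of all genes above are for all 3 samples, and none is given for the smaller sets.

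**Figure D2:**
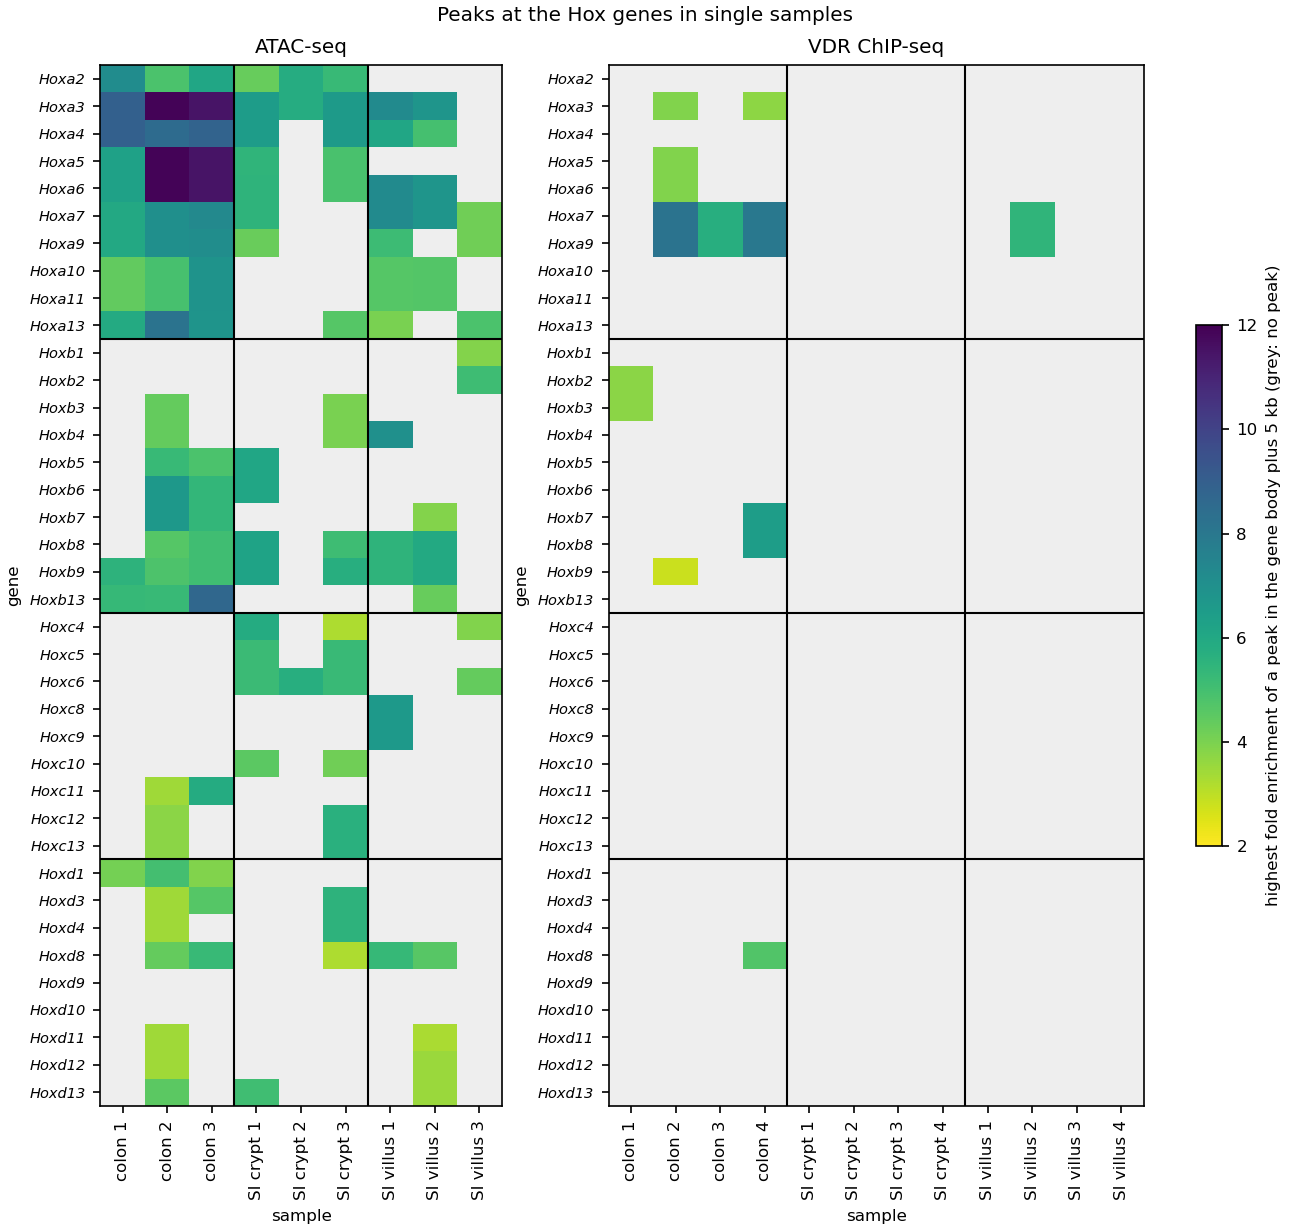
Highest fold enrichment of a peak in the gene body plus 5 kb (colour) for 38 of the 39 Hox genes (rows, each cluster from its lowest to its highest number) in each of the 9 ATAC-seq and 12 VDR ChIP-seq samples (columns), with grey for no peak. All HoxA genes shown had an ATAC peak in all 3 colon samples, and the SI crypt columns of VDR are empty.

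In colon, HoxA held more ATAC peaks than any other cluster. All 11 HoxA genes had an ATAC peak in all 3 colon samples, while 3 did so in SI crypt and 1 in SI villus. From 5 kb before its first to 5 kb after its last gene, HoxA held 16 (colon), 11 (SI crypt) and 6 (SI villus) pooled ATAC peaks. Every sample called 9 of the 16 (colon), 1 of the 11 (SI crypt) and 0 of the 6 (SI villus). Peaks covered 5880 bp (colon), 2010 bp (SI crypt) and 1666 bp (SI villus) of the cluster.

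Hoxa4 (chr6:52139670-52141752) had 8.95, 8.48 and 8.80 in colon, 6.49, 0 and 6.56 across SI crypt, and 6.09, 4.96 and 0 across SI villus, where 0 means no peak. Its 3 colon samples were close together and above every SI sample. This promoter peak, with its colon summit 189 bp upstream of the start site, was in the pooled lists of all 3 compartments, at a fold enrichment of 7.61 (colon), 6.42 (SI crypt) and 4.54 (SI villus).

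Hoxa5, which is known for its part in lung and gut development, lay beside the strongest ATAC peak of all 4 clusters. That peak had a fold enrichment of 9.10 and a −log10 q of 64.6 in the colon pool, with its summit 3446 bp downstream of the Hoxa5 start site, in an intron of the long Hoxa3 record. Its sequence is the first of the second set above. In SI crypt a peak at the same place reached a fold enrichment of 3.97 and was called in 1 sample, and SI villus had none. In the Hoxa5 window the values were 6.26, 11.9 and 11.5 in colon, 5.45, 0 and 4.89 across SI crypt, and 0 in all 3 SI villus samples. The groups did not overlap. In SI crypt the window held a second pooled peak, in a UTR of Hoxa3 (chr6:52149981-52150151), called in samples 1 and 3. The strongest site was called in SI crypt sample 3 alone, so the sample 1 value came from elsewhere in the window. The promoter itself, with a colon summit 56 bp upstream of the start site, had 4.77, 3.58 and 4.46 in colon and no peak in any SI sample.

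The outermost annotated start of Hoxa3 had a similar pattern. Within 1 kb of it, colon samples had 5.39, 6.35 and 7.28, and no SI crypt or SI villus sample had a peak. Hoxa6 had a promoter peak of 5.75 in colon sample 3, of 5.50 in SI crypt sample 1, and of 7.23 and 6.77 in SI villus samples 1 and 2. In SI villus it was the strongest SI villus ATAC peak of the 4 clusters, at a pooled fold enrichment of 5.18.

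Hoxa7 (chr6:52164490-52171853), a gene of the trunk region, was the only Hox gene with an ATAC peak in every SI villus sample. Its window had 5.95, 7.02 and 7.28 in colon, 5.50, 0 and 0 across SI crypt, and 7.23, 6.77 and 4.17 across SI villus. In SI villus samples 1 and 2 these values were those of the Hoxa6 promoter peak, and colon and SI villus overlapped. The SI villus call was lost at a −log10 q of at least 5. At the start site itself, colon had a peak in 3 of 3 samples, SI crypt in 0 and SI villus in 2.

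At the posterior end, Hoxa10 and Hoxa11, which pattern the limb and the reproductive tract, were counted through the Hoxa10 promoter peak and, in colon samples 2 and 3, a second peak in a Hoxa11 intron. In its window Hoxa10 had 4.40, 4.91 and 6.87 in colon, no peak in any SI crypt sample, and 4.64, 4.67 and 0 in SI villus. The SI crypt pool held a Hoxa10 promoter peak (chr6:52190560-52190670) at a fold enrichment of 4.01 that no single sample called. Hoxa13, a hindgut and limb gene at the end of the cluster, had 5.87, 8.19 and 6.82 in colon, 0, 0 and 4.62 across SI crypt, and 4.03, 0 and 4.85 across SI villus. Every colon value of Hoxa13 lay above every SI value, and its colon summit was 33 bp upstream of the start site.

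**Figure D3:**
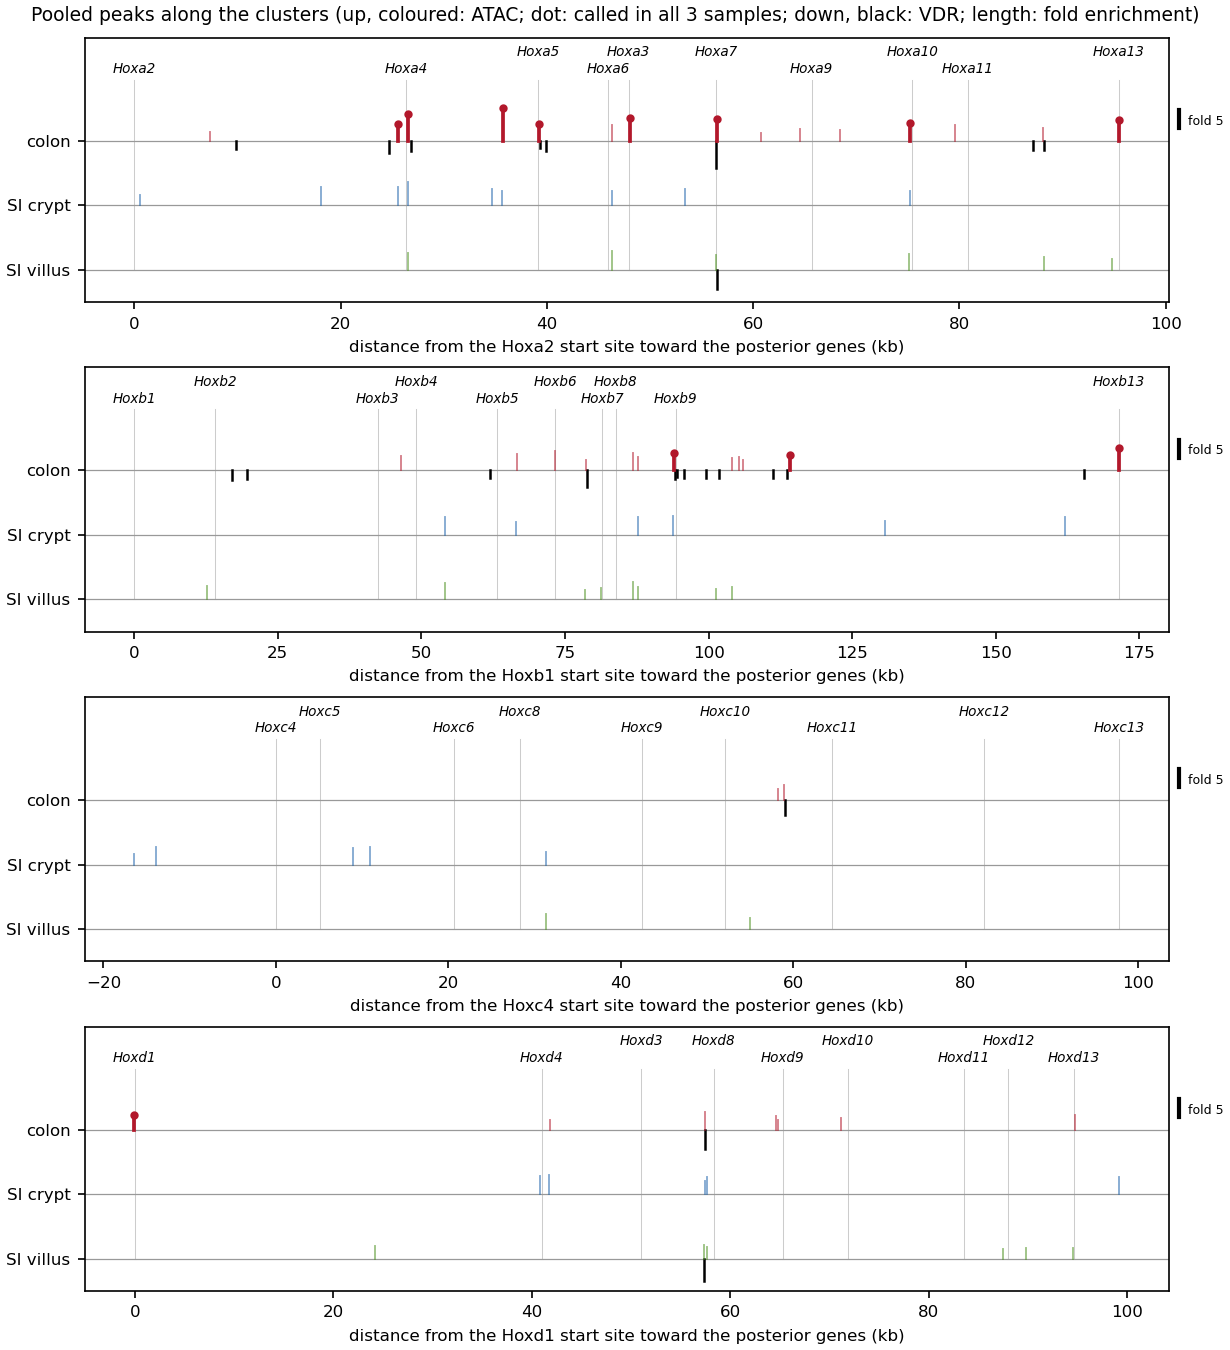
Pooled peaks along each Hox cluster, as distance in kb from the start site of the most anterior gene shown toward the posterior genes (x axis), with a row per compartment. Coloured bars point up for ATAC peaks, black bars point down for VDR peaks, length is fold enrichment, and dots mark the peaks called in all 3 ATAC samples, of which the plot shows 12 (colon), 0 (SI crypt) and 0 (SI villus). Peaks nearest to 1 gene are not drawn.

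HoxB showed accessible sites in its middle and at its far posterior gene. It held 12 (colon), 6 (SI crypt) and 8 (SI villus) pooled ATAC peaks, of which 3 were called in all colon samples and none in all samples of either SI compartment. Hoxb13 (chr11:96055630-96058761), a gene of the hindgut and prostate, had a promoter peak with its summit 57 bp upstream of the start site. Its values were 5.30, 5.27 and 8.67 in colon, no peak in SI crypt, and 0, 4.33 and 0 across SI villus. The colon values lay above all SI values, with mean differences of 6.41 from SI crypt and 4.97 from SI villus (exact two-sided permutation p = 0.1 for each, the smallest that 3 against 3 samples allow, and adjusted p = 0.291 for each over all genes tested).

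Hoxb9 had a peak in its first exon, with 5.54, 4.77 and 4.92 within 1 kb of the start site in colon, 5.74 in SI crypt sample 3 and no peak in SI villus. A colon peak in the gap between Hoxb13 and Hoxb9 (chr11:96112676-96113076) was also called in all 3 colon samples, at a pooled fold enrichment of 4.25, and lay outside every gene window. It was in neither SI list. Hoxb6 had a peak 11 bp upstream of its start site in the colon pool alone, called in colon samples 2 and 3. Of the anterior HoxB genes, Hoxb1 had no pooled ATAC peak in any compartment, and Hoxb2 had one in SI villus, called in sample 3.

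HoxC held few ATAC peaks in any compartment. No HoxC promoter had a pooled ATAC peak within 1 kb of its start site in any compartment. Colon had 2 pooled ATAC peaks, both between Hoxc11 and Hoxc10. SI crypt had 5, of which 4 lay at Hoxc4 and Hoxc6, and SI villus had 2. With equal numbers of strongest peaks in the pooled lists, colon had 2 and neither SI compartment had any, which reversed the order of colon and SI crypt. Hoxc6 (chr15:102828688-102842312), a gene of the thoracic region, had no peak in any colon sample, 5.18, 5.75 and 5.24 across SI crypt, and 0, 0 and 4.36 across SI villus. It was the only Hox gene with an ATAC peak in every SI crypt sample and in no colon sample (exact two-sided permutation p = 0.1, adjusted p = 0.291). Its support came from 2 places: SI crypt sample 2 was called in an intron of the Hoxc6 record, and samples 1 and 3 in its coding exon. The call was lost at a −log10 q of at least 5 and with equal numbers of strongest peaks per sample.

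HoxD separated colon from both SI compartments at its most anterior gene. Hoxd1 (chr2:74601037-74603200) had 4.11, 4.97 and 3.90 in colon and no peak in any SI crypt or SI villus sample, with a pooled colon summit 53 bp into the gene. It was the only gene of the 39 with an ATAC peak in every colon sample and in no sample of either SI compartment, and this call was lost with equal numbers of strongest peaks per sample. At Hoxd8 the window held 0, 4.35 and 5.26 in colon, 0, 0 and 3.24 across SI crypt, and 5.28, 4.58 and 0 across SI villus, so the compartments overlapped. Among the posterior genes, Hoxd13 had a promoter peak in the colon pool, called in sample 2 alone, and Hoxd9 and Hoxd10 had pooled colon peaks that no single sample supported.

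By paralogue number, ATAC peaks in all 3 colon samples were found at 4 of 8 genes numbered 1 to 3. They were found at 4 of 15 numbered 4 to 8 and at 6 of 16 numbered 9 to 13, beside 52.4% of all genes. In SI crypt the same counts were 3, 1 and 0, beside 61%, and in SI villus 0, 1 and 0, beside 57.6%. In pooled lists, SI crypt peaks lay mostly at genes numbered 4 to 8 (14 of 15). Colon had pooled peaks at 11 of 16 genes numbered 9 to 13, where SI crypt had 6 and SI villus 11. The pooled shares of all genes were 64.1% (colon), 73.6% (SI crypt) and 70.2% (SI villus).

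**Figure D4:**
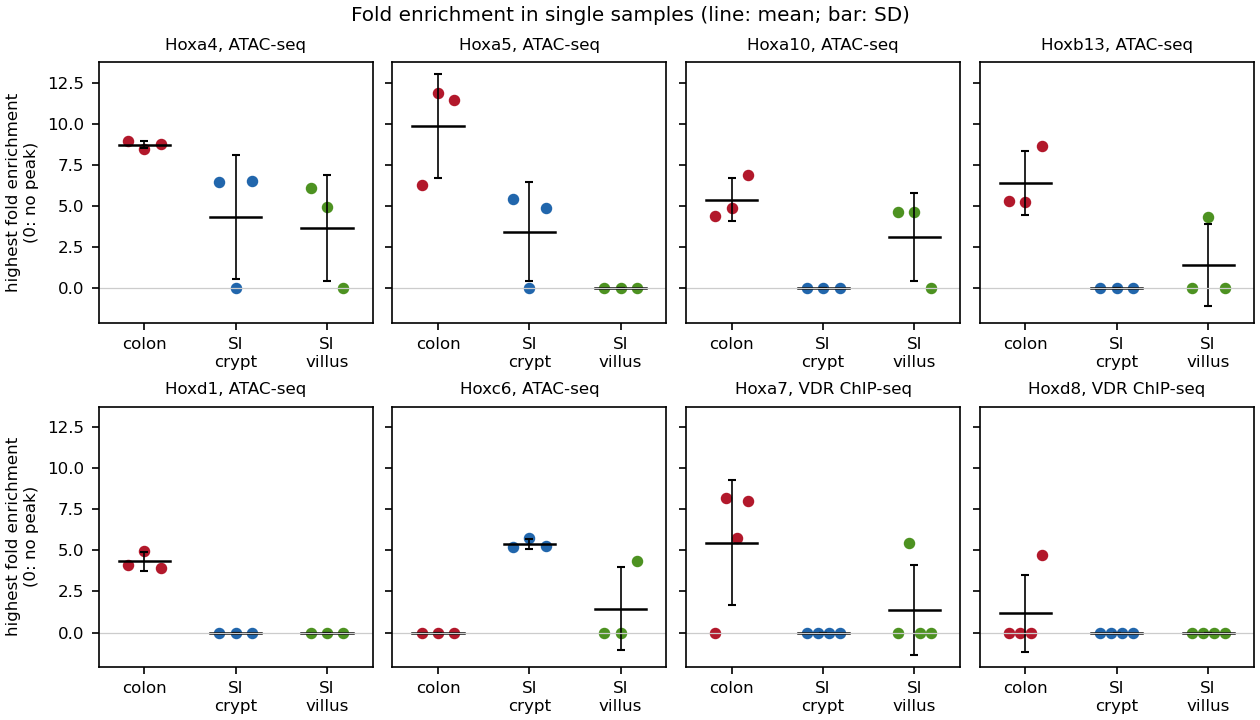
Highest fold enrichment in the gene window (y axis, 0 for no peak) in single samples (points) of colon, SI crypt and SI villus (x axis), with the mean (line) and SD (bar), for 6 genes in ATAC-seq (n = 3) and 2 genes in VDR ChIP-seq (n = 4). Hoxd1 had ATAC peaks in colon alone, Hoxc6 had none in colon, and VDR at Hoxa7 was called in 3 of 4 colon samples and in 1 of 4 SI villus samples.

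These patterns were read against all genes. An ATAC peak in every colon sample and in no SI crypt sample was found at 4 Hox genes (Hoxa10, Hoxa11, Hoxb13 and Hoxd1) and at 0.184% of all genes. The reverse, every SI crypt sample and no colon sample, held for Hoxc6 and for 3.88% of all genes. Every colon and no SI villus sample held for 4 Hox genes, Hoxa5 and Hoxd1 among them, and 0.408% of all genes, and every SI villus and no colon sample for no Hox gene and 2.8% of all genes. Every SI crypt and no SI villus sample held for 2 Hox genes and 1.13% of all genes, and the reverse for no Hox gene and 0.296% of all genes. Across all genes, peaks confined in this way to colon were thus rarer than the reverse in both comparisons that include colon, and 7 Hox genes, counting through shared peaks, were among the colon ones. Colon ATAC lists were also the shortest. With equal numbers of strongest peaks per sample, 10 Hox genes had one in every colon and no SI crypt sample, beside 1.78% of all genes, and 12 had one in every colon and no SI villus sample, beside 2.21%. Hoxb13 and HoxA genes made up both counts. No Hox gene met the rule in the opposite direction, beside 2.13% of all genes for SI crypt and 1.65% for SI villus. Without colon sample 1, the count against SI villus was 8. Without SI crypt sample 2, the crypt-over-colon count was 4 and the crypt-over-villus count was 5. For these smaller sets no share of all genes is given, and the shares above do not apply to them.

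Fold enrichment did not overlap between the samples of 2 compartments for more Hox genes. It was higher in colon than in SI crypt at 11 Hox genes of 33 tested, beside 16.6% of 17116 genes tested, and higher in SI crypt at 1, beside 17.7%. It was higher in colon than in SI villus at 9 of 35, beside 23.9% of 16666 genes, and higher in SI villus at none, beside 10.5%. SI crypt was higher than SI villus at 3 of 35, beside 15.5% of 17491 genes, and SI villus was higher at none, beside 3.48%. No gene of the whole table passed an adjusted p of 0.05 and none had an unadjusted exact p below 0.05, since 3 against 3 samples cannot go below 0.1. The median difference in fold enrichment, colon minus SI crypt, was 1.15 over the Hox genes and −0.18 over all genes tested. For colon minus SI villus it was 1.45 over the Hox genes and 0.87 over all genes. For SI crypt minus SI villus it was 0.17 over the Hox genes and 0.80 over all genes. Without colon sample 1, the count higher in colon than in SI villus was 17. Without SI crypt sample 2, the count higher in SI crypt was 6 against colon and 7 against SI villus, and without SI villus sample 3, the count higher in SI villus than in SI crypt was 6. Fewer samples overlap less easily at any gene. The shares above are for 3 against 3 samples, and none is given for the smaller sets, so these counts cannot be read against all genes.

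VDR peaks at the Hox genes were found mainly in the colon list, the longest of the 3. In colon 17 of 39 Hox genes had a pooled VDR peak in the gene window, beside 46.7% of all genes. In SI crypt none did, beside 34.5%, and in SI villus Hoxa7, Hoxa9 and Hoxd8 did, beside 40.1%. At promoters, 5 Hox genes had a pooled VDR peak in colon (Hoxa4, Hoxa5, Hoxa7, Hoxb9 and Hoxd8), beside 22.2% of all genes, none in SI crypt, beside 17.6%, and Hoxa7 and Hoxd8 in SI villus, beside 24.2%. The absence in SI crypt held in single samples too: none of the 4 SI crypt samples had a VDR peak at any Hox gene, SI crypt sample 1 included, which had 13381 peaks and a VDR peak at 36.6% of all genes. The VDR pools held 46166439 (colon), 25325174 (SI crypt) and 34583701 (SI villus) fragments, so that SI crypt was the shallowest, and the part of depth in this difference was not tested.

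The VDR peak with the most support was at the Hoxa7 promoter in colon. Its summit lay 4 bp upstream of the start site, with a fold enrichment of 7.67 and a −log10 q of 54.0, which ranked it 986th of the 22882 colon peaks. In single colon samples the values were 0, 8.18, 5.72 and 7.98, in SI crypt 0 in all 4, and across SI villus 0, 5.46, 0 and 0. The peak appeared in 3 of 4 colon samples, and the missing one, sample 1, had the fewest colon peaks (1760). The mean difference from SI crypt was 5.47 and that from SI villus 4.11 (exact two-sided permutation p = 0.143 for each, adjusted p = 1 for each). The SI villus pool had a peak at the same place, 36 bp upstream of the start site, with a fold enrichment of 5.35. The site lay in an ATAC peak of both compartments, and SI crypt had no ATAC peak there. Of the deposited sets of differential VDR sites, the 571 sites higher in colon than in SI crypt included this promoter (chr6:52171686-52172027), which counts for Hoxa7 and Hoxa9, and 1.65% of all genes had a site of that set. None of the other 5 sets overlapped a Hox window. They overlapped 1.47% (higher in SI crypt than in colon), 3.02% (colon than SI villus), 2.36% (SI villus than colon), 0.552% (SI crypt than SI villus) and 0.00898% (SI villus than SI crypt) of all genes, so that 0 of 39 Hox genes stands near these shares.

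The other VDR peaks were weaker or had less support. Hoxd8 had a peak in its first coding exon in both the colon and the SI villus pool, with a fold enrichment of 5.34 and 6.20, but it was called in colon sample 4 alone and in no SI villus sample. At Hoxb7 a colon peak in a coding exon, with a fold enrichment of 4.67, was called in sample 4. HoxC had a single VDR peak, in colon, 5497 bp downstream of the Hoxc11 start site, that no single sample called.

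HoxB held 12 pooled VDR peaks in colon, 6 of them without support in any sample. That stands near the 50.8% of all colon VDR peaks that no sample called. Their median fold enrichment was 2.21, against 3.36 for all colon VDR peaks. The 5 nearest to the Hoxb9 start site had fold enrichments of 1.96 to 2.26 with −log10 q of 9.60 to 16.3, and 2 more lay farther upstream, at −log10 q of 2.24 and 3.28. Each of these fold enrichments lay below the median of all colon VDR peaks. Counting pooled peaks with at least 2 supporting samples, only Hoxa7 and Hoxa9, which share the Hoxa7 peak, kept a VDR peak in colon.

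No Hox gene had a VDR peak in every sample of a compartment, which held for 4.68% (colon), 2.52% (SI crypt) and 3.24% (SI villus) of all genes. Nor did any Hox gene separate 2 compartments by VDR peaks. Over all genes, that held for 0.229% (colon over SI crypt), 0.0853% (SI crypt over colon), 0.368% (colon over SI villus), 0.162% (SI villus over colon), 0.018% (SI crypt over SI villus) and 0.0359% (SI villus over SI crypt). No Hox gene had VDR values without overlap, where between colon and SI crypt 0.733% of the 10501 genes tested were higher in colon and 0.552% higher in SI crypt. Between colon and SI villus these shares were 1.29% and 1.31%, and between SI crypt and SI villus 0.089% and 0.425%. No gene passed an adjusted p of 0.05 in the exact test, whose smallest p for 4 against 4 is 0.0286, and 135, 260 and 52 genes had an unadjusted p below 0.05 in the 3 comparisons. Without colon sample 1, Hoxa7 and Hoxa9 met the rule for every colon sample, for separation from SI crypt, and for no overlap with either SI compartment. The shares above are for all 4 samples, and none is given for this smaller set.

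Of the 22 colon VDR peaks in the clusters, 7 overlapped a colon ATAC peak (31.8%), against 41.9% of all colon VDR peaks. Both SI villus VDR peaks did, against 56.3% of all SI villus VDR peaks. The VDR and ATAC libraries came from different mice.

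The DNA under the peaks was rich in GC. The median GC content of the 200 bp at the summit of Hox ATAC peaks was 62% (colon), 56.5% (SI crypt) and 62.5% (SI villus), against 53%, 51.5% and 51% for all ATAC peaks of the same lists. Motif letters were searched on both strands. TTTATNG was found in 9 of 37 Hox ATAC peaks in colon, where 14.9% of all peaks had it, in 12 of 27 SI crypt ones (12.4% of all) and in 2 of 22 SI villus ones (10.6%). TGATNNAT, a core bound by PBX and HOX proteins, was found in 2 of 37 colon peaks (6.17% of all), 3 of 27 SI crypt peaks (7.04%) and 1 of 22 SI villus peaks (8.2%). AGATAA, the core read by GATA factors, was found in 1 of 37 colon peaks (7.65%), 0 of 27 SI crypt peaks (14.5%) and 1 of 22 SI villus peaks (15.3%). TGANTCA, the AP-1 core, was found in 2 of 37 (16.6%), 0 of 27 (12.0%) and 1 of 22 (19.0%).

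In the 22 colon VDR peaks of the clusters, AGGTCA was found in 2 (22.0% of all colon VDR peaks), AGTTCA in 3 (19.1%) and a DR3 in none (2.05%). For the DR3, none among 22 peaks stands near its share. The CTCF core was in none of the Hox peaks of any list. Of all ATAC peaks, 1.84% (colon), 3.11% (SI crypt) and 2.24% (SI villus) had it. Of all VDR peaks, 0.69% (colon), 0.551% (SI crypt) and 0.537% (SI villus) had it, so none among so few Hox peaks stands near these shares. These are matches of letters, with no test, and overlapping motifs were each counted.

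Other genes of the pathway were read from lists, by pooled peaks in the gene window. For these lists and the cell markers below, 64.1% (colon), 73.6% (SI crypt) and 70.2% (SI villus) of all genes had a pooled ATAC peak. The shares of all genes with a pooled VDR peak were 46.7%, 34.5% and 40.1% in the same order. The lists were not tested against these shares. Of 18 Polycomb and Trithorax genes, all 18 had an ATAC peak in each compartment, and 14 (colon), 5 (SI crypt) and 10 (SI villus) had a pooled VDR peak. Jarid2, a Polycomb cofactor, had a VDR peak in each of the 12 samples, at a fold enrichment of 12.4 ± 3.58 (colon), 23.0 ± 9.80 (SI crypt) and 32.5 ± 14.2 (SI villus), as mean ± SD with n = 4 each. Of 9 genes for HOX cofactors (Pbx, Meis and Pknox), 8 (colon), 8 (SI crypt) and 9 (SI villus) had an ATAC peak, and 3, 3 and 1 had a VDR peak. Meis1 had an ATAC peak in all samples of both SI compartments and in 1 of 3 colon samples.

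Among 8 ParaHox and Evx genes, 4 (colon), 6 (SI crypt) and 6 (SI villus) had an ATAC peak, and 2, 3 and 3 had a VDR peak. Cdx2, the caudal factor that sets intestinal identity, had ATAC peaks in all 9 samples and VDR peaks in 4 of 4 colon, 3 of 4 SI crypt and 4 of 4 SI villus samples. Evx1 and Evx2, which lie beyond the posterior ends of HoxA and HoxD, had no VDR peak in any compartment. Of 9 retinoic acid genes, 5 (colon), 7 (SI crypt) and 7 (SI villus) had an ATAC peak, and 4, 4 and 3 had a VDR peak. Cyp26b1, which breaks down retinoic acid, had ATAC peaks in every SI crypt and SI villus sample and in no single colon sample, although the colon pool had one. Of 12 genes flanking the clusters, 11 (colon), 10 (SI crypt) and 11 (SI villus) had an ATAC peak, and 7, 1 and 1 had a pooled VDR peak. The pooled lists of both SI compartments held no VDR peak at Atp5g2. Single samples did call one there, in 4 of 4 SI crypt and 2 of 4 SI villus samples.

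Markers of other cells were read beside these results, since stromal cells also use Hox genes. Of 9 stromal markers, 3 (colon), 7 (SI crypt) and 7 (SI villus) had a pooled ATAC peak, and 0, 0 and 5 had a peak in every sample. Their summed promoter fold enrichment ranged over samples from 0 to 6.09 (colon), 0 to 9.13 (SI crypt) and 0 to 6.90 (SI villus). Dcn, Pdgfra, Des and Myh11 had ATAC peaks in every SI villus sample and in no single colon sample, although the colon pool had a peak at Myh11. Pdgfrb had one in every SI villus sample, in 1 of 3 SI crypt samples and in 2 of 3 colon samples, where its mean fold enrichment was 4.12, and Col1a1 had a promoter peak in 1 of 3 colon samples. Acta2 and Col3a1 had none in colon, and Col1a2 had none in any sample. Of 6 immune markers, 3, 3 and 4 had a pooled ATAC peak and none had a promoter peak, and of 6 endothelial and neural markers 1, 4 and 2 had a pooled ATAC peak (colon, SI crypt and SI villus). Of 7 epithelial markers, all 7 had a pooled ATAC peak in each compartment. Of 5 colon markers 5, 4 and 4, and of 5 proximal small intestine markers 3, 5 and 5, had a pooled ATAC peak in colon, SI crypt and SI villus. The part of stromal cells in the Hox peaks was not tested. In such bulk samples, more cells with an open site and more open DNA per cell cannot be told apart.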

How the data were processed

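VDR ChIP-seq (12 samples) and ATAC-seq (9 samples) were analysed from the deposited peak lists. Per the processing notes, methods and file headers, the authors trimmed reads (cutadapt 1.9.1 among the tools named, NGmerge for VDR), aligned them to mm9 (Bowtie2 2.2.6) and called peaks per sample and on merged samples without a control (MACS2 2.1.0.20150731, 1 tag or fragment kept per position). Picard 2.18.27, SAMtools 0.1.19 and bedtools 2.17.0 are also named. The deposited fold enrichment is the ratio of tags at the summit to the local background, and the deposited −log10 q value is that of MACS2 (cutoff 0.05). The deposited sets of differential VDR sites hold positions alone and were used as such.

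Peaks kept in the processed interval lists were matched to the MACS2 tables by name (samples) or by summit and length (pooled lists, whose deposited intervals are centred on the summit) and overlapped with genes of GENCODE M1 (mm9, overlapping records of a symbol joined) by Python 3.11.15 scripts (numpy 2.4.6, scipy 1.17.1). A gene window was the gene body plus 5 kb. The value of a gene in a sample was the highest fold enrichment of a peak in the window, or 0. Differences of means were tested by exact two-sided permutation over samples for all genes with a peak in either compartment, with Benjamini-Hochberg adjustment over all of them. Tests were checked on simulated data. The depth per sample bounds only which peaks could be called, and no interval is given for a fold enrichment.

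Genes described in full were those meeting the rule of a peak in every sample of a compartment and in none of another, and those nearest to the strongest pooled VDR and ATAC peaks of each cluster. Of 94 genes in the other lists, 92 matched by symbol and 2 by an older symbol on the same chromosome. The Hox genes, lists and tests were chosen with earlier results of these data known. Alternatives were other windows, a −log10 q of at least 5, equal numbers of strongest peaks, support by samples, leaving out a sample, and a replicate block. Replicate numbers are shared between compartments. Deviations of same-numbered samples correlated at 0.228 to 0.551 in all 4 VDR pairs of SI crypt and SI villus, which counts as paired, and not in all pairs of any other comparison. The blocked test changed no VDR count. Values of 1 Hox gene and 1 peak sequence are not reported here.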

Additional observations from a re-analysis of the deposited data

Results flagged for a closer look

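In groups of 4 VDR samples, a value far from the others was looked for at the Hox genes with a peak, and 11 of the 16 groups examined held one. Chance flags about 1 in 20 groups of continuous values, and here the groups are mostly zeros with a single called peak. In SI villus, 2 Hox genes had a VDR peak in sample 2 and none in the other samples. Those were Hoxa7 and Hoxa9, each at a fold enrichment of 5.46 through the same promoter peak. In colon, sample 2 alone had the peaks at Hoxa5 and Hoxa6 (3.91 each, the same peak) and at Hoxb9 (2.78). Colon sample 1 alone had the peak at Hoxb2 and Hoxb3 (3.74 each), although it had the fewest colon peaks. Colon sample 4 alone, with the most colon peaks, had the peaks at Hoxb7 and Hoxb8 (6.42 each) and at Hoxd8 (4.70).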

How the results depend on the processing

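Leaving out a sample kept 171 of 189 gene counts within 1.5 times and raised 18. Other alternatives kept 102 of 132, raised 4 and lowered 26, and lowered 16 of 48 cluster peak counts. With gene bodies alone, pooled counts were 10 (VDR, colon), 12 (ATAC, SI crypt) and 11 (ATAC, SI villus), and 1 gene had ATAC peaks in every SI crypt and no SI villus sample. Within 1 kb of start sites, pooled counts were 5 (VDR, colon), 17 (ATAC, colon), 8 (ATAC, SI crypt) and 9 (ATAC, SI villus). There, genes with ATAC peaks in every sample were 1 (SI crypt) and 0 (SI villus), and SI crypt was separated from colon at 0 genes and from SI villus at 1. At −log10 q of at least 5 the pooled VDR count in colon was 11, those with ATAC peaks in every sample were 1 (SI crypt) and 0 (SI villus), colon was separated from SI crypt at 7 genes, and SI crypt from colon and from SI villus at 0 each. With equal numbers of strongest peaks, pooled counts were 11 (VDR, colon), 7 (ATAC, SI crypt) and 9 (ATAC, SI villus), and separation by ATAC held at 10 genes (colon, not SI crypt), 12 (colon, not SI villus), 0 (SI crypt, not colon) and 0 (SI crypt, not SI villus). With pooled peaks found in 2 or more samples the counts were 2 (VDR, colon), 0 (VDR, SI villus), 9 (ATAC, SI crypt) and 10 (ATAC, SI villus). The cause of these differences was not tested beyond fewer or shorter windows and lists.

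No share of all genes is given for the counts with a sample left out, where the rules are easier to meet at any gene. Leaving out 1 sample at a time gave 0 to 2 Hox genes for VDR in every colon sample, for its separation from SI crypt, and for higher colon values than in either SI compartment. For ATAC it gave 4 to 12 genes in every SI crypt sample, 1 to 9 in every SI villus sample, 1 to 4 separating SI crypt from colon, 4 to 8 colon from SI villus, 2 to 5 SI crypt from SI villus and 0 to 2 SI villus from SI crypt. Counts of values without overlap ranged over 1 to 6 (higher in SI crypt than in colon), 9 to 17 (colon than SI villus), 0 to 1 (SI villus than colon), 3 to 7 (SI crypt than SI villus) and 0 to 6 (SI villus than SI crypt). With the replicate block, 1 Hox gene, Hoxa7, had higher ATAC values in SI villus than in SI crypt in all pairs, against 0 without it, and no other count moved by over 1.5 times. The blocked test cannot go below p = 0.25 with 3 pairs or 0.125 with 4 (exact permutation). Depth was not matched between VDR libraries, and whether a peak missing from one of few fragments was missed for that reason was not tested.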
